A study of Homo sapiens with 31 samples.

Results

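The comparison described here set cyclophosphamide-treated tumours of PC3 clone D4 against cyclophosphamide-treated tumours of unpassaged PC3 (wt), across every gene the arrays could name. Its members were chosen by their labels alone: the 4 arrays of treated D4 (replicates 1, 2, 4 and 5) and the 4 arrays of treated wt (replicates 1, 2, 3 and 5), 8 of the 31 arrays in the series. PC3 is an established human prostate carcinoma line, and the series concerns how its tumours become resistant to cyclophosphamide (CPA). CPA is a prodrug that liver enzymes oxidise to a mustard that crosslinks DNA. Cells of each line were injected into animals, and when the xenografts averaged 30 mm3, 1 set of each line received CPA at 120 mg/kg intraperitoneally while the other set served as control. D4 is a re-isolated clone conditioned in vivo, which the labels call resistant, and wt is conditioned in vitro only, which they call sensitive. Both groups of this comparison carried the same drug, and D4 is 1 clone, so what it carries by chance as a clone, through passage and through resistance cannot be told apart. The treated arrays of D3, a second resistant clone, and of A3, a passaged clone called sensitive, served to show where D4 differed from its relatives (4 arrays each). Untreated D4 and untreated wt (4 arrays each) gave the same contrast without the drug. Nothing in the labels states that replicate arrays came from separate animals, and p-values therefore reflect the scatter among these particular arrays, some of which may be technical.

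Several pathways recur below. Type I interferon made by a cell or its neighbours binds a receptor pair, and the signal from it activates a factor complex that contains IRF9 and switches on a large set of antiviral genes through a promoter element called the ISRE. The genes of DNA synthesis are switched on by E2F factors as cells enter S phase, and the genes of mitosis follow later, through promoters with a CHR element and CCAAT boxes. Low oxygen stabilises the HIF factors, which raise glycolysis and vessel-forming signals, and crowding of unfolded protein in the endoplasmic reticulum raises the chaperones of that compartment.

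Expression was read on Affymetrix Human Gene 1.0 ST arrays as log2 levels. A log2 difference of 1 is a 2-fold difference. Differences are D4 minus wt with the standard error (SE) of limma's fit, group levels carry the SD over 4 arrays, and a gene was called when its Benjamini-Hochberg adjusted p was under 0.05. Of 17314 genes, 2620 (15.1%) were called, 1306 higher in D4 (7.54%) and 1314 lower (7.59%). At least 2-fold differences were found for 21 of the higher and 78 of the lower genes. The median difference over all genes was -0.02. Among the 8 arrays, those of 1 group correlated at 0.9923 to 0.9963 over genes and those of different groups at 0.9813 to 0.9919. With a median residual SD of 0.148, an SE of 0.105 was typical. The 4 D4 arrays and the 4 wt arrays did not overlap for 3584 genes (20.7%), 1805 higher (10.4%) and 1779 lower (10.3%). Both conditions were met by 2306 genes (13.3%), 1171 higher (6.76%) and 1135 lower (6.56%).

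**Figure D1:**
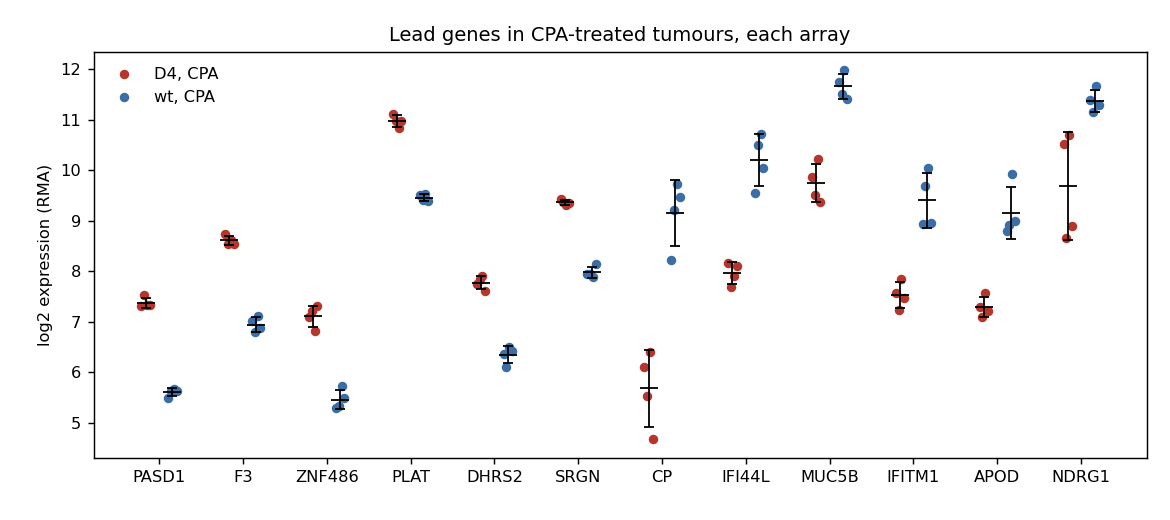
Log2 level of leading genes in the 4 D4 arrays (red) and the 4 wt arrays (blue) after CPA, 1 point per array, with black bars for the mean and SD. CP spans 4.68 to 6.41 in D4 and 8.21 to 9.73 in wt, and for none of these genes do the 2 groups overlap.

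The widest difference of all was in ceruloplasmin (CP), a copper-carrying ferroxidase that helps iron leave cells. Its level was 6.10, 5.54, 6.41 and 4.68 in D4, against 8.21, 9.22, 9.73 and 9.46 in wt. All D4 arrays lay below all wt arrays, and CP was 11.1-fold lower (-3.48 ± 0.29 SE, adjusted p 9.08e-10). SLC40A1, the only known cellular iron exporter, fell as well (-0.94 ± 0.11 SE), while SLC39A14, a zinc and iron importer, rose (0.46 ± 0.07 SE). Of 12 measured iron and copper genes 1 rose (8.33%, beside 7.54% of all genes) and 4 fell (33.3%, beside 7.59%). The other fallers were the metalloreductase STEAP4 (-0.37) and the iron importer SLC11A2 (-0.24). The iron uptake receptor TFRC differed by -0.07 and was not called.

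Interferon-stimulated genes fell together. Their products sense, bind or degrade viral RNA or tag viral protein, and the list of such effectors held 52 genes, 51 of them measured. In D4 42 of the 51 were called lower and 0 higher, and 9 were not called, at a median difference of -0.87 against -0.02 over all genes. The share called lower was 82.4%, beside 7.59% of all genes. The promoters of 3 of the strongest fallers are shown because the factor complex of this pathway is known to bind ISRE elements. They are the RefSeq sequences on GRCh38.p14 from 250 bases before to 50 after the start of the gene, written 5′ to 3′ on the strand of the gene, with matches to the ISRE core (GAAA, any 2 bases and again GAAA, on either strand) in capitals. IFI44L lies at chr1:78620198-78620497 on the plus strand, IFITM1 at chr11:313790-314089 on the plus strand and IFI6 at chr1:27672143-27672442 on the minus strand.
IFI44L: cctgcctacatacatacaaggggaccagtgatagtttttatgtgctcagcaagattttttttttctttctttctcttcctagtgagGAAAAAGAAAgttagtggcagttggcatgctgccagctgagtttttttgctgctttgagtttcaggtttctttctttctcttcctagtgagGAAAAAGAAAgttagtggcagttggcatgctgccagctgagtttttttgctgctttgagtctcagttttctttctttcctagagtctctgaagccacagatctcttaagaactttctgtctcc
IFITM1: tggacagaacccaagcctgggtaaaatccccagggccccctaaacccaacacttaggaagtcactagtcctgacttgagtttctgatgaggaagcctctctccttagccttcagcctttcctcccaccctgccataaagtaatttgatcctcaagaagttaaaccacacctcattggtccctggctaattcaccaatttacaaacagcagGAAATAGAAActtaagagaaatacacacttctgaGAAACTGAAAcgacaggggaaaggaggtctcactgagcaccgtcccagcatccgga
IFI6: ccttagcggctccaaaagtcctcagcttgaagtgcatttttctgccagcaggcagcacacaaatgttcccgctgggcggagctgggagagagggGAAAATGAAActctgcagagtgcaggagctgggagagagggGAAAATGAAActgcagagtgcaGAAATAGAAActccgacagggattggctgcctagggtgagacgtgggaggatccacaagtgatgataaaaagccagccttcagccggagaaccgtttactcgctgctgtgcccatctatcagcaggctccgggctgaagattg
IFI44L and IFITM1 hold 2 matches each and IFI6 holds 3. Such a match was found in 28 of the 43 interferon effector promoters that RefSeq gave (65.1%) and in 22 of the 34 whose genes were called lower (64.7%). Of all 27305 promoters 3.65% hold one, as do 2.92% of those of measured genes, 5.37% of those of all genes called lower and 1.89% of those called higher. A match describes the letters and does not show that a factor was bound.

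IFI44L, a cytoplasmic protein strongly induced by interferon, had levels of 8.16, 7.69, 7.91 and 8.10 in D4, against 9.55, 10.50, 10.72 and 10.04 in wt. It was 4.72-fold lower (-2.24 ± 0.25 SE, adjusted p 1.95e-07). IFITM1, a membrane protein that hinders virus entry, had levels of 7.58, 7.23, 7.86 and 7.48 in D4, against 8.94, 9.68, 10.05 and 8.95 in wt (-1.87 ± 0.20 SE). IFI6, a small membrane protein with antiviral action, had levels of 9.32, 9.17, 9.28 and 9.72 in D4, against 10.68, 11.18, 11.32 and 10.55 in wt (-1.56 ± 0.18 SE). In all 3 genes every D4 array lay below every wt array. The wt arrays were also the more scattered: replicates 2 and 3 were high and replicates 1 and 5 low in each of the 3 genes, while the D4 arrays stayed close together. Averaged over the 51 genes, the log2 level was 7.65, 7.49, 7.57 and 7.64 in D4, against 8.22, 8.61, 8.84 and 8.28 in wt.

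Within the list, all 6 of the OAS and MX genes fell (median -1.30). OAS1 (-1.57 ± 0.17 SE) and OAS2 (-1.59 ± 0.16 SE) make the second messenger that switches on RNase L, and MX1 (-1.35) and MX2 (-1.25) are GTPases that trap viral particles. Of the 13 IFIT and IFI proteins 12 fell (median -1.16), among them IFIT1 (-1.58), which binds foreign RNA, IFIT3 (-1.16) and the RNA sensor IFIH1 (-1.26). IFIT5 (-0.25) was the one not called. Of the 7 genes of the ISG15 system 6 fell (median -0.69), among them the ubiquitin-like modifier ISG15 itself (-0.69), its activating enzyme UBA7 (-0.91) and its protease USP18 (-0.51). HERC5, the ligase of that system, was at 0.05 and not called. Of the 25 others 18 fell (median -0.74), led by the antiproliferative SAMD9L (-1.68 ± 0.21 SE), the pro-apoptotic XAF1 (-1.64 ± 0.21 SE) and the restriction factor TRIM22 (-1.64 ± 0.22 SE).

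The signalling layer above these genes held fewer calls. Of 31 measured genes 3 rose (9.68%, beside 7.54% of all genes) and 6 fell (19.4%, beside 7.59%), at a median of -0.03. Called lower were IRF9, the DNA-binding part of the complex that binds the ISRE (-0.93 ± 0.12 SE), NLRC5, which drives MHC class I genes (-0.64 ± 0.12 SE), the double-stranded RNA receptor TLR3 (-0.62 ± 0.15 SE) and the factors IRF1 (-0.38), IRF7 (-0.33) and IRF2 (-0.31). The DNA sensor CGAS (0.58 ± 0.13 SE), the feedback inhibitor SOCS2 (0.83 ± 0.09 SE) and the interferon gamma receptor chain IFNGR1 (0.35 ± 0.10 SE) were called higher. The type I receptor chains IFNAR1 (0.11) and IFNAR2 (0.00) and the kinases JAK1 (-0.11) and TYK2 (-0.02) were not called. IFNGR1 missed the threshold when D4 replicate 5 was left out (adjusted p 0.0674).

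Antigen presentation shared part of the fall. B2M, the light chain of every MHC class I molecule, had levels of 10.21, 10.13, 10.27 and 10.38 in D4, against 10.63, 10.97, 11.15 and 10.69 in wt (-0.61 ± 0.11 SE), with no overlap. The trimming peptidases ERAP1 (-0.36 ± 0.09 SE) and ERAP2 (-0.36) and the proteasome activator PSME1 (-0.31) fell too. That made 4 of 7 measured members called lower (57.1%, beside 7.59% of all genes), and 0 rose. The list held 19 genes, and of its 7 heavy and light chain genes only B2M was measured, so no heavy chain was read. The call of ERAP1 was lost without wt replicate 3 (adjusted p 0.0623). In the death receptor pathway the ligand TNFSF10 (TRAIL) had levels of 5.79, 5.51, 5.94 and 5.37 in D4, against 6.40, 7.42, 7.94 and 6.98 in wt and was 2.9-fold lower (-1.53 ± 0.22 SE). Its receptor TNFRSF10A rose (0.50 ± 0.08 SE), the initiator caspase CASP8 fell (-0.33 ± 0.07 SE), and so did CFLAR, which restrains that caspase (-0.63 ± 0.09 SE). FAS, another death receptor, was called higher (0.36 ± 0.11 SE), but its call was lost without wt replicate 1 or 5 and without D4 replicate 2 or 5 (adjusted p 0.0505, 0.113, 0.062 and 0.0712). In the BCL2 family, NOXA (PMAIP1), which neutralises MCL1, rose (0.67 ± 0.10 SE), MCL1 fell (-0.36 ± 0.08 SE), and 13 of 15 members were not called.

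Proliferation genes went the other way. Of 32 measured mitosis genes 30 were called higher in D4 and 0 lower, at a median of 0.60. The share called higher was 93.8%, beside 7.54% of all genes. For all 32 every D4 array lay above every wt array, as was so for 10.4% of all genes. The promoters of PLK1 and CCNB2 are shown for the CHR element (TTTGAA, either strand, in capitals), again from RefSeq on GRCh38.p14, PLK1 at chr16:23678639-23678938 and CCNB2 at chr15:59104896-59105195, both on the plus strand.
PLK1: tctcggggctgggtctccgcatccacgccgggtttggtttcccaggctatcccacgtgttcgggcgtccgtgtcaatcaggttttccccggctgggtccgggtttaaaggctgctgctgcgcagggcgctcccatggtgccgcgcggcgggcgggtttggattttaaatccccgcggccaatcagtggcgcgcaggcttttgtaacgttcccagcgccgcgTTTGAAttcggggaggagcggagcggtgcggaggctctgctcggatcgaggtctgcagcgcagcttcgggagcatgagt
CCNB2: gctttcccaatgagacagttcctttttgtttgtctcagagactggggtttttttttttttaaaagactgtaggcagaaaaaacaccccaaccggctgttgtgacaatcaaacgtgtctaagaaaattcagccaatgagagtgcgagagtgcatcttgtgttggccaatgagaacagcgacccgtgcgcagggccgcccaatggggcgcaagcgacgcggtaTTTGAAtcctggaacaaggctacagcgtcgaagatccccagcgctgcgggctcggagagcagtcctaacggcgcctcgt
In each the element begins 29 bases before the gene start. Of the 28 mitosis promoters that RefSeq gave, 19 (67.9%) hold TTTGAA and 22 (78.6%) hold CCAAT, beside 15.4% and 35.7% of all 27305 promoters. Of the promoters of measured genes 11.6% hold TTTGAA and 36.1% hold CCAAT. Of the promoters of all genes called higher 15.9% hold TTTGAA, beside 9.24% of those called lower.

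PLK1, the kinase that starts mitosis and builds its spindle, had levels of 8.89, 9.0, 9.07 and 9.03 in D4, against 8.24, 8.15, 8.23 and 7.97 in wt (0.86 ± 0.10 SE, adjusted p 3.04e-07). Cyclin B2 (CCNB2), which activates CDK1, had levels of 8.59, 8.56, 8.59 and 8.82 in D4, against 8.0, 7.88, 7.83 and 8.01 in wt (0.71 ± 0.10 SE). In both genes the D4 arrays lay above all wt arrays. The kinases and cyclins rose in all 13 cases (median 0.59), with the spindle checkpoint kinase TTK highest (1.01 ± 0.21 SE), then cyclin A2 (CCNA2, 0.83 ± 0.09 SE) and CDK1 (0.76). Of the 10 kinesins and spindle proteins 9 rose (median 0.65), among them the microtubule depolymerase KIF2C (0.71 ± 0.10 SE) and the spindle pole protein ASPM (0.77), and KIF11 (0.35) was not called. Of the 9 kinetochore genes 8 rose (median 0.58), with NDC80 (0.78) and CENPE (0.70), which tie chromosomes to microtubules, and NUF2 (0.51) was not called. Survivin (BIRC5) rose on its brighter probe set (0.53 ± 0.07 SE), whereas its dimmer one differed by 0.23 (adjusted p 0.285). The mean over the list was 8.79, 8.83, 8.62 and 8.79 in D4, against 8.23, 8.22, 7.99 and 8.07 in wt.

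DNA replication genes rose too. Of 36 measured members 31 were called higher (86.1%, beside 7.54% of all genes) and 0 lower, at a median of 0.41. All 14 helicase and origin genes rose (median 0.49), 11 of 13 polymerase and clamp genes (median 0.35) and 6 of 9 nucleotide and entry genes (median 0.39). GINS2, a subunit of the replicative helicase, led the list and its promoter is shown for an E2F site (TTTCCCGC or TTTGGCGC, either strand, in capitals). It lies at chr16:85688905-85689204 on the minus strand.
GINS2: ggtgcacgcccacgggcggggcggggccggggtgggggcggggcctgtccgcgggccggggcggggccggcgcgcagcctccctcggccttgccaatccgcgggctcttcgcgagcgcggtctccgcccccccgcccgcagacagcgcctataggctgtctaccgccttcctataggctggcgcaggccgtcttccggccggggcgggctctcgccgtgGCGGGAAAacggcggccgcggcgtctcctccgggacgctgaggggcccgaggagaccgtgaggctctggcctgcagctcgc
The match starts 31 bases before the gene start and reads on the other strand. Such a site was found in 17 of 33 promoters of this list (51.5%), beside 2.31% of all promoters and 3.14% of those of measured genes. It was found in 6.99% of those of all genes called higher and 1.98% of those called lower.

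GINS2 had levels of 8.17, 8.13, 7.93 and 8.05 in D4, against 7.30, 7.18, 7.25 and 7.24 in wt, without overlap (0.83 ± 0.10 SE, adjusted p 9.5e-07). ORC1, which marks origins, rose by 0.68 (± 0.10 SE), the primase PRIM1 by 0.76 (± 0.11 SE) and the helicase subunit MCM3 by 0.42 (± 0.06 SE). TYMS, thymidylate synthase, rose too (0.56 ± 0.09 SE), as did the clamp PCNA (0.52) and the reductase subunit RRM2 (0.68). The histone list split: of 13 genes 7 rose (53.8%, beside 7.54% of all genes) and 4 fell (30.8%, beside 7.59%). H3C2 (0.74 ± 0.17 SE) and H4C3 (0.52) rose, while H2BC21 had levels of 7.84, 7.81, 7.98 and 7.85 in D4, against 8.76, 9.02, 9.51 and 9.26 in wt (-1.27 ± 0.14 SE). H4C8 (-0.99 ± 0.13 SE), H3C10 (-0.85 ± 0.11 SE) and H2BC12 (-0.82) fell as well. Histone genes of a cluster are near-identical in sequence, and probe sets for one may bind another, so the split by gene is uncertain.

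DNA repair and drug handling bear on an alkylating drug. Of 31 measured repair genes 10 rose and 1 fell (median 0.14). For this and the smaller lists that follow, 7.54% of all genes were called higher and 7.59% lower. The rises were in homologous recombination, with BRCA1 (0.64 ± 0.15 SE), RAD54L (0.61 ± 0.09 SE), XRCC2 (0.59) and PALB2 (0.34), in crosslink repair, with FANCI (0.58 ± 0.11 SE) and FANCE (0.45 ± 0.08 SE), and in the strand-break sensor PARP1 (0.40 ± 0.07 SE). FANCF fell (-0.36). Untreated, D4 minus wt gave 6 rises and 3 falls among the 31 (median 0.06). After CPA, A3 minus wt gave 5 rises and 0 falls (median 0.07), and D3 minus wt 4 and 1 (median 0.05). In A3, the clone labelled sensitive, RAD54L (0.59), FANCI (0.62), FANCE (0.43) and PARP1 (0.52) were also called above wt. BRCA1 (0.38) was not. Directly against A3, D4 had 1 repair gene higher and 1 lower, and against D3 1 higher and 0 lower. In D4 minus wt after CPA, MGMT, which removes alkyl groups from guanine, differed by -0.23 and was not called. Of 41 genes that activate, oxidise, conjugate or export CPA and its products 6 rose and 6 fell, at a median of -0.02, the same to 2 decimals as over all genes. ALDH1A1, the aldehyde dehydrogenase best known for detoxifying CPA, averaged 4.42 ± 0.18 in D4 and 4.45 ± 0.27 in wt (SD, n = 4 each), a difference of -0.03 that was not called.

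The conjugating enzymes moved both ways. The glutathione transferases GSTM2 (-0.65 ± 0.10 SE), GSTM3 (-0.66 ± 0.13 SE) and GSTT1 (-0.35) fell, and MGST1 (0.44 ± 0.10 SE) with both subunits of the enzyme that makes the glutathione precursor, GCLC (0.37 ± 0.09 SE) and GCLM (0.41), rose. The exporter ABCC3 fell (-0.48 ± 0.09 SE). CYP2B6, a liver enzyme that activates CPA, was called at a dim level near 5.5 in D4 (0.41 ± 0.14 SE, adjusted p 0.0475). That call was lost with the replicate number as a block (adjusted p 0.0766), without any of the 4 wt arrays and without D4 replicate 1, 4 or 5 (adjusted p 0.0641 to 0.161). Of 15 p53 target genes 3 rose and 1 fell, TP53INP1 (-0.94 ± 0.14 SE), and CDKN1A (0.05) and MDM2 (0.05) were not called. PC3 lacks functional p53.

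Among genes driven by NRF2, the sensor of oxidants, 5 of 17 rose and 3 fell. Malic enzyme (ME1), which makes NADPH, had levels of 9.37, 9.46, 9.22 and 9.50 in D4, against 8.36, 8.47, 8.36 and 8.18 in wt (1.05 ± 0.09 SE). NQO1, a quinone reductase, had levels of 9.34, 9.22, 9.15 and 9.23 in D4, against 8.60, 8.58, 8.49 and 8.49 in wt (0.69 ± 0.08 SE). Neither gene overlapped between the groups, and both were higher in D4. The aldo-keto reductases AKR1C3 (-0.85 ± 0.12 SE), AKR1C2 (-0.57) and AKR1C1 (-0.42) fell. These 3 are close copies, and probes for one may bind another.

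Hypoxia genes fell in part. Of 32 measured members 17 were called lower (53.1%, beside 7.59% of all genes) and 0 higher (median -0.47). Signals and sensors gave 9 of 16 and glycolysis 8 of 16. NDRG1, a stress protein strongly induced by low oxygen, had levels of 10.51, 8.66, 10.70 and 8.89 in D4, against 11.39, 11.15, 11.67 and 11.30 in wt (-1.69 ± 0.37 SE, adjusted p 0.00178). No D4 array reached the wt range, but the D4 arrays fell into 2 pairs, with replicates 1 and 4 above 10 and replicates 2 and 5 below 9. The list mean repeated that pairing, at 8.87, 8.53, 8.89 and 8.54 in D4, against 9.13, 9.06, 9.34 and 9.15 in wt. The kinase PFKFB4, a glycolysis regulator (-1.17 ± 0.21 SE), the glucose carrier SLC2A1 (-0.90), the matrix crosslinker LOX (-0.89 ± 0.16 SE), the collagen hydroxylase P4HA1 (-0.73 ± 0.11 SE) and the mitochondrial gatekeeper PDK1 (-0.61 ± 0.11 SE) were among those that fell. VEGFA (-0.18), CA12 (-0.14) and ENO1 (-0.01) were not called. An ACGTG motif was found in 13 of 27 hypoxia promoters (48.1%), beside 21.6% of all promoters and 24.2% of those of measured genes. It was found in 26.8% of those of all genes called lower and 27.2% of those called higher.

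Endoplasmic reticulum chaperones were lower as a group: 10 of 12 fell (83.3%, beside 7.59% of all genes) and 0 rose (median -0.32). The promoter of HSP90B1, the HSP90 of that compartment, is shown because it holds the stress element ERSE, read as CCAAT, any 9 bases and CCACG on either strand and given in capitals, which only 22 of 27305 promoters (0.0806%) carry and 4 of the 12 list members do (33.3%). It lies at chr12:103930160-103930459 on the plus strand of GRCh38.p14.
HSP90B1: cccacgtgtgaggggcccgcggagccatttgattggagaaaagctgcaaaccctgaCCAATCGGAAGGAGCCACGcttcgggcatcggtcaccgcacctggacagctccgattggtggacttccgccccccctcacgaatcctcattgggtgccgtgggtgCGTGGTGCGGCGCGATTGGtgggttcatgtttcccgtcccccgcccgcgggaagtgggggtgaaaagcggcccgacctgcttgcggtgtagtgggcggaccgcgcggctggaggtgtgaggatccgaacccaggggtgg
Both matches lie before the gene start. HSP90B1 had levels of 12.26, 12.13, 12.18 and 12.12 in D4, against 12.52, 12.62, 12.66 and 12.61 in wt (-0.43 ± 0.10 SE), with no overlap between groups. The co-chaperones DNAJB9 (-0.98 ± 0.11 SE) and DNAJC3 (-0.64 ± 0.12 SE) and the degradation factor HERPUD1 (-0.59 ± 0.10 SE) fell furthest, and the central chaperone HSPA5 fell by 0.27 on the log2 scale (± 0.07 SE). In the integrated stress response 5 of 19 genes rose and 3 fell. The amino acid carrier SLC7A5 rose (0.84 ± 0.10 SE), as did asparagine synthetase ASNS (0.41), whereas STC2 (-0.56 ± 0.13 SE) and DDIT3 (-0.45) fell. Of 8 fatty acid genes 4 fell, led by the desaturase SCD (-0.65 ± 0.13 SE), and the elongase ELOVL6 rose (0.56 ± 0.11 SE). Of 19 sterol genes 2 fell and 0 rose, and of 15 ribosomal protein genes none was called in either direction by limma (range of differences -0.17 for RPS14 to 0.12 for RPL10A).

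**Figure D2:**
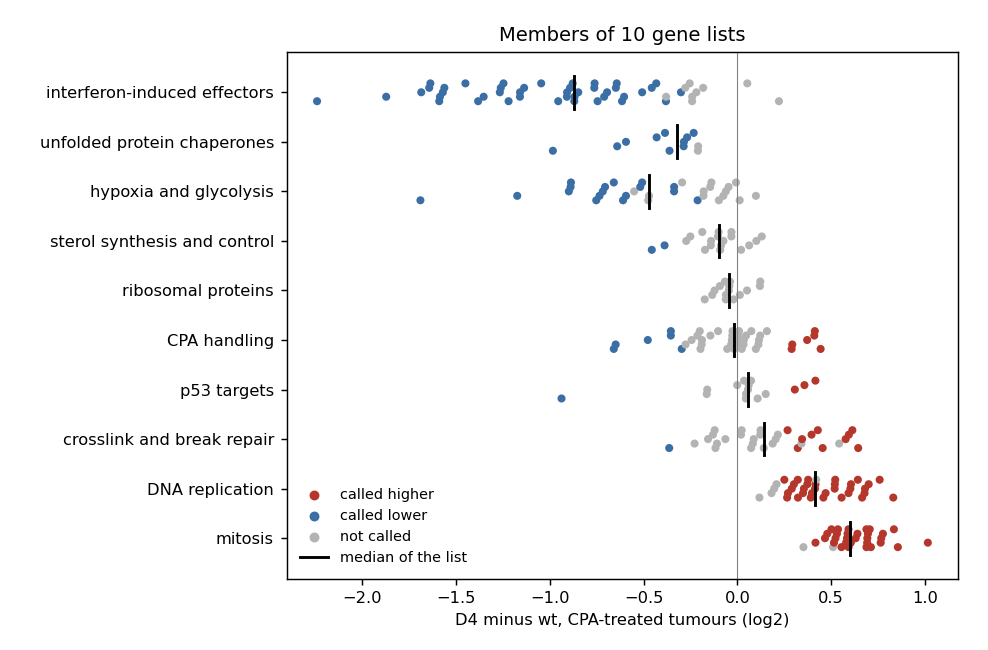
Log2 difference, D4 minus wt after CPA, for each measured member of the main gene lists, 1 point per gene. The median lies at -0.87 for the interferon effectors, 0.60 for mitosis, 0.41 for DNA replication, -0.47 for hypoxia and -0.32 for the endoplasmic reticulum chaperones.

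Blood clotting genes included 2 of the highest. Tissue factor (F3), which starts coagulation, had levels of 8.74, 8.54, 8.63 and 8.55 in D4, against 7.01, 6.79, 7.11 and 6.87 in wt and was 3.18-fold higher (1.67 ± 0.15 SE, adjusted p 3.55e-09). PLAT, the tissue plasminogen activator, which starts the dissolving of clots, had levels of 11.11, 10.97, 10.84 and 10.98 in D4, against 9.51, 9.41, 9.53 and 9.39 in wt and was 2.86-fold higher (1.52 ± 0.08 SE, adjusted p 2.74e-13). Both were tight within groups and far apart between them. TFPI, the main inhibitor of tissue factor, fell (-1.10 ± 0.15 SE), its relative TFPI2 rose (0.85 ± 0.11 SE), and urokinase (PLAU) rose (0.42 ± 0.09 SE). Of 9 measured members of this list 4 rose and 1 fell.

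Several cancer/testis antigens, which are normally confined to germ cells, rose. PASD1 had levels of 7.31, 7.53, 7.32 and 7.34 in D4, against 5.49, 5.64, 5.67 and 5.63 in wt, the largest rise of any gene with separate arrays (1.77 ± 0.11 SE, adjusted p 1.8e-12). MAGEC2 (1.05 ± 0.12 SE) and MAGEA10 (0.84 ± 0.09 SE) rose too. MAGEA1 was called (0.33 ± 0.11 SE), but not without wt replicate 1 or 2 or without any of the D4 arrays (adjusted p 0.05 to 0.117). The other 8 of 12 measured members were not called. Of 6 measured APOBEC3 cytidine deaminases 2 were called higher: APOBEC3B (0.82 ± 0.12 SE), and APOBEC3G (0.72 ± 0.18 SE), in which D4 replicate 2 lay within the wt range.

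The other highest genes code for unlike products. DHRS2, a dehydrogenase/reductase, averaged 7.78 ± 0.13 in D4 and 6.35 ± 0.17 in wt (SD, n = 4 each) (1.43 ± 0.11 SE), and the proteoglycan core serglycin (SRGN) averaged 9.37 ± 0.05 in D4 and 7.98 ± 0.11 in wt (SD, n = 4 each) (1.39 ± 0.10 SE). The pattern-recognition protein PTX3 (1.27 ± 0.16 SE) and the hyaluronan-binding TNFAIP6 (1.14 ± 0.18 SE), both secreted in inflammation, rose, as did the phospholipid-binding ANXA3 (1.19 ± 0.17 SE), the retinol dehydrogenase DHRS9 (1.18 ± 0.19 SE) and the fatty acid elongase ELOVL2 (1.16 ± 0.12 SE). CD274 (PD-L1), the ligand that restrains T cells, had levels of 6.09, 6.11, 5.75 and 6.39 in D4, against 5.04, 5.05, 4.94 and 4.76 in wt (1.14 ± 0.17 SE). All D4 arrays lay above all wt arrays, at levels below the array medians of 6.59 to 6.73. The zinc finger gene ZNF486 (1.65 ± 0.13 SE), the splicing factor MBNL3 (1.11 ± 0.13 SE), the guidance protein SLIT2 (1.08 ± 0.13 SE) and DEPDC1 (1.06 ± 0.26 SE) complete the 15 highest.

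The lowest genes after CP and IFI44L held mucins and secreted proteins. The gel-forming mucin MUC5B had levels of 9.87, 9.52, 10.22 and 9.37 in D4, against 11.75, 11.51, 11.98 and 11.42 in wt (-1.92 ± 0.17 SE), and the membrane mucin MUC15 averaged 6.29 ± 0.06 in D4 and 8.13 ± 0.30 in wt (SD, n = 4 each) (-1.85 ± 0.23 SE). The lipid carrier APOD averaged 7.29 ± 0.21 in D4 and 9.16 ± 0.51 in wt (SD, n = 4 each) (-1.87 ± 0.17 SE), and SPARC, a matrix protein that binds collagen, had levels of 9.26, 9.12, 9.68 and 8.84 in D4, against 10.41, 10.76, 11.27 and 11.07 in wt (-1.65 ± 0.20 SE). FAM177B (-1.93 ± 0.20 SE), the transporter ABCA13 (-1.82 ± 0.15 SE) and TMEM71 (-1.71 ± 0.21 SE) complete that end. None of these overlapped between the groups.

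Lineage and matrix genes were called in part, most of their lists in both directions. E-cadherin (CDH1), the main adhesion protein of epithelia, averaged 5.85 ± 0.23 in D4 and 6.69 ± 0.17 in wt (SD, n = 4 each) (-0.84 ± 0.12 SE), and the desmosome genes DSP (-0.53 ± 0.09 SE) and JUP (-0.36) fell, while 17 of 21 epithelial genes were not called, the keratins KRT8 (0.24) and KRT18 (-0.01) included. N-cadherin (CDH2) rose (0.40 ± 0.08 SE) and so did the receptor kinase AXL (0.40 ± 0.11 SE), whose call was lost without wt replicate 5 (adjusted p 0.0595). Fibronectin (FN1) fell (-0.84 ± 0.10 SE), so the mesenchymal list gave 2 rises and 2 falls among 14. Of 9 prostate genes 3 fell, FOXA1 (-0.50 ± 0.11 SE), SLC45A3 (-0.43 ± 0.10 SE) and HOXB13 (-0.39 ± 0.10 SE), and HOXB13 lost its call without D4 replicate 5 (adjusted p 0.0629). FOXA1 and HOXB13 stayed bright in both groups, at 10.42 ± 0.21 in D4 and 10.81 ± 0.08 in wt (SD, n = 4 each) for HOXB13, and the androgen targets KLK2 and KLK3 were below 6 in both, at 5.77 ± 0.11 in D4 and 5.76 ± 0.17 in wt (SD, n = 4 each) for KLK2 and 5.86 ± 0.16 in D4 and 5.89 ± 0.14 in wt (SD, n = 4 each) for KLK3. Of 16 collagens 2 rose and 5 fell, with COL12A1 (0.76 ± 0.12 SE) and COL4A5 (-0.61 ± 0.10 SE) the clearest of each direction. Of 16 matrix proteases and inhibitors 4 rose and 3 fell, with MMP3 (0.71 ± 0.13 SE) and MMP16 (-0.76 ± 0.13 SE).

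Growth factor pathways held calls in both directions. In the WNT list LGR5, a receptor known as a stem cell marker in gut, had levels of 7.87, 7.85, 8.64 and 7.58 in D4, against 9.13, 9.21, 9.66 and 9.41 in wt (-1.37 ± 0.18 SE), the receptor FZD7 fell (-0.62 ± 0.10 SE), and the factor LEF1 rose (0.44), with 14 of 18 not called. Of 22 TGF-beta and BMP genes 3 rose (13.6%) and 6 fell (27.3%). Among them the ligand TGFB2 rose (0.96 ± 0.13 SE), and the receptor BMPR1B (-0.77 ± 0.11 SE) and the stress cytokine GDF15 (-0.65 ± 0.14 SE) fell. The leukaemia inhibitory factor receptor LIFR (0.69 ± 0.15 SE), the growth factor TGFA (0.48 ± 0.10 SE) and the chemokine CXCL8 (0.44) rose. Of 17 cytokine genes 2 rose and 1 fell, and of 10 genes of the EGF receptor list 1 rose and 1 fell. CXCL8 was the only call among 14 chemokines. The vessel factors VEGFC (-0.41 ± 0.07 SE) and ANGPT1 (-0.66 ± 0.15 SE) fell, in a list where 1 of 15 rose and 3 fell. Of 9 NF-kappaB genes 2 rose (22.2%) and 3 fell (33.3%). The inhibitors TNFAIP3 (0.58 ± 0.11 SE) and NFKBIA (0.54 ± 0.11 SE) rose. The adhesion molecule ICAM1 fell (-0.53 ± 0.14 SE), with the D4 and wt ranges overlapping. SERPINB5 rose (0.46 ± 0.09 SE), alone of 9 clade B serpins.

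Because the tumours grew in animals, markers of host cells were read as well, with the limit that a human array need not bind host RNA. In bulk tumour RNA, fewer cells of a type and less RNA per cell cannot be told apart. Of 9 myeloid, 4 red cell, 6 muscle, 5 fat and 5 skin markers none was called in either direction by limma. As list means, myeloid markers ranged from 5.26 to 5.38 in D4 and from 5.26 to 5.40 in wt, and red cell markers from 5.12 to 5.33 in D4 and from 5.11 to 5.45 in wt. The fibroblast markers ranged from 6.15 to 6.34 in D4 and from 6.06 to 6.32 in wt, with COL3A1 lower (-0.62 ± 0.15 SE) and POSTN higher (0.45) among 10. The endothelial markers ranged from 6.13 to 6.20 in D4 and from 6.29 to 6.33 in wt. Over the 10 endothelial markers the median difference was -0.02, with 5 above 0 and 5 below. Of those 10 only KDR, the main VEGF receptor, was called, at 7.88, 7.77, 8.04 and 7.95 in D4, against 9.21, 9.52, 9.86 and 9.38 in wt (-1.58 ± 0.13 SE), whereas the defining endothelial markers PECAM1 (0.14), CDH5 (0.06) and VWF (-0.10) were not. The part of host cells in the other results was not tested.

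Untreated tumours gave the line difference without the drug. Its group means come from other arrays than the treated contrast, but both share 1 model and its estimate of the spread. In untreated tumours 3482 genes (20.1%) were called, 1597 higher (9.22%) and 1885 lower (10.9%). A model of only the untreated D4 and wt arrays called 1805, 697 higher and 1108 lower, and one of only the treated arrays of both lines called 2927. The overlaps given next rest on the model of all arrays. Of the 2620 genes called after CPA, 1849 were called in the same direction in untreated tumours, 857 higher and 992 lower, and 1 in the opposite direction. These were 70.6% of the treated calls and 53.1% of the untreated ones. Across the genes, which are not independent replicates, the differences of the 2 contrasts correlated at r = 0.721. A test of the interaction, the line difference under CPA minus the line difference untreated, called 0 genes with limma, also under each alternative tried, and 1269 genes had an unadjusted p under 0.05. A further 770 genes were called only after CPA and 1632 only in untreated tumours, but none of these was called in the interaction. Median centring moved the split of the untreated calls from 45.9% to 56.1% higher.

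The main lists were also counted in untreated tumours, and no difference between the states was tested for a list. Interferon effectors gave 0 rises and 42 falls after CPA, and 1 rise and 47 falls untreated, with medians of -0.87 and -0.96. Mitosis gave 30 rises after CPA and 21 untreated (medians 0.60 and 0.53), DNA replication 31 and 31 (0.41 and 0.46), chaperones 10 falls and 10 (-0.32 and -0.29), and hypoxia 17 falls and 10 (-0.47 and -0.32). CP was lower by -3.48 after CPA and -3.93 untreated, and F3 higher by 1.67 and 1.84. The smallest unadjusted interaction p-values among the genes named here belonged to ZNF486, at 1.65 after CPA and 0.85 untreated (interaction p 0.000143, adjusted p 0.618), and to ZNF681, at 1.0 and -0.08 (interaction p 0.000783, adjusted p 0.667), so neither passed. NDRG1 was at -1.69 after CPA and at -0.82 untreated, where it was not called, with an interaction adjusted p of 0.691. Within lines, CPA against control called 178 genes in D4 (1.03%), of which 115 were higher (0.664%) and 63 lower (0.364%). In wt it called 8 (0.0462%), of which 1 was higher (0.00578%) and 7 lower (0.0404%). The difference between the CPA responses of the lines is the same interaction, which called 0 genes.

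**Figure D3:**
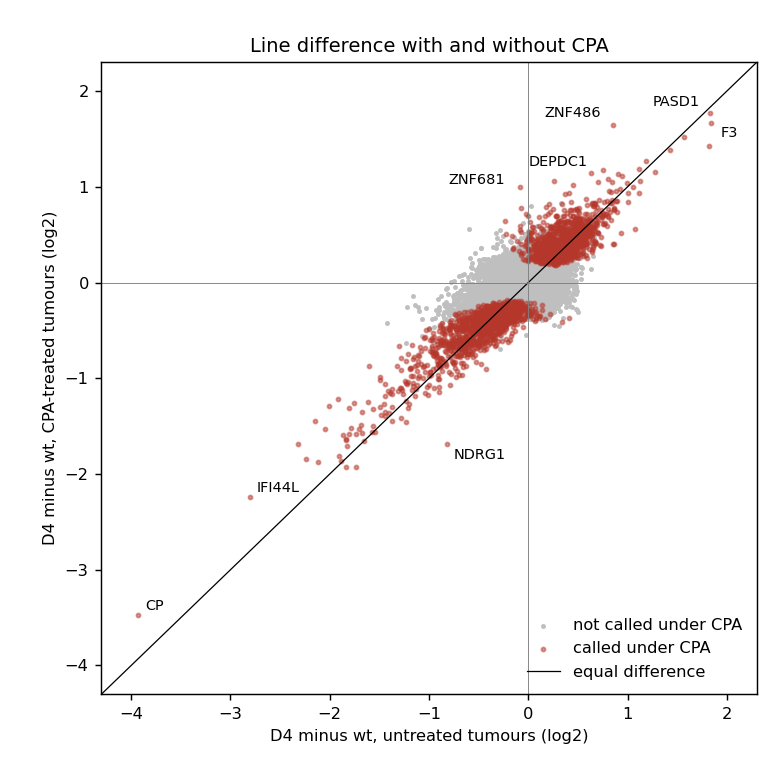
Log2 difference D4 minus wt after CPA (vertical) against the same in untreated tumours (horizontal), 1 point per gene. CP lies at -3.48 after CPA and -3.93 untreated, and ZNF681 at 1.0 and -0.08.

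The other passaged clones showed how much of this D4 had in common with them. Each clone was set against the same wt arrays, so their differences share those arrays and are given side by side. After CPA, D3 minus wt called 2831 genes (16.4%; 6.28% higher and 10.1% lower) and A3 minus wt 2829 (16.3%; 6.74% higher and 9.6% lower). The interferon list fell by 42 of 51 genes in D4, 44 in D3 and 41 in A3, with medians of -0.87, -0.96 and -0.78. CP was at -3.48 in D4, -3.01 in D3 and -3.92 in A3. Mitosis rose by 30 of 32 genes in D4, 15 in D3 and 22 in A3, with medians of 0.60, 0.31 and 0.45, and DNA replication by 31 of 36 in D4, 19 in D3 and 33 in A3. Hypoxia genes fell by 17 of 32 in D4, 18 in D3 and 6 in A3. A3 carries the label sensitive, so the interferon and proliferation patterns were found in clones of both labels.

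Set directly against D3, D4 differed in 1394 genes (8.05%), 789 higher (4.56%) and 605 lower (3.49%). A model of only those groups called 2634. The count rests on single arrays: it was 218 without D3 replicate 5, 784 without D3 replicate 4, and 246, 309 and 494 without D4 replicate 2, 1 and 5. Against A3 it differed in 2143 genes (12.4%), 1283 higher (7.41%) and 860 lower (4.97%), and in 1177 without A3 replicate 1 and 1215, 1258 and 1326 without D4 replicate 2, 1 and 5. Of the 1306 genes higher in D4 than in wt, 322 were also called higher than in D3, 421 than in A3 and 200 than in both. Of the 1314 lower genes, 114 were also lower than in D3, 243 than in A3 and 62 than in both. These comparisons reuse the D4 arrays. Against D3, 5 interferon effectors were higher and 0 lower (median 0.09), and 8 mitosis genes were higher and 0 lower (median 0.30, beside -0.04 over all genes). Against A3, 3 interferon effectors were higher and 2 lower (median 0.04), and 2 mitosis genes were higher and 0 lower (median 0.18, beside -0.05 over all genes). DNA replication gave 4 higher and 0 lower genes against D3, and 2 higher and 7 lower against A3.

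Some genes set D4 apart from every other line. F3 averaged 8.61 ± 0.09 in D4, 7.44 ± 0.08 in D3, 7.17 ± 0.20 in A3 and 6.95 ± 0.14 in wt (SD, n = 4 each), and D4 exceeded D3 by 1.17 and A3 by 1.45 (adjusted p 3.38e-05 and 8.6e-08). ME1 averaged 9.39 ± 0.13 in D4, 8.56 ± 0.09 in D3, 8.28 ± 0.08 in A3 and 8.34 ± 0.12 in wt (SD, n = 4 each), with D4 above D3 by 0.83 and above A3 by 1.11. KDR averaged 7.91 ± 0.12 in D4, 8.63 ± 0.13 in D3, 8.52 ± 0.24 in A3 and 9.49 ± 0.28 in wt (SD, n = 4 each), with D4 below D3 by a difference of -0.73 and below A3 by -0.62. ZNF486 (0.86 against D3 and 1.71 against A3), APOBEC3G (0.96 and 1.06) and the serine protease-like PRSS35 (0.85 and 1.09) were called against both. MUC5B was lower than in D3 (-0.69), a call lost under 3 of 14 alternatives (adjusted p up to 0.0772), and lower than in A3 (-0.83). The differences from D3 of F3, ME1, KDR, ZNF486, APOBEC3G and PRSS35 and those from A3 of F3 and ZNF486 kept their calls under all 14 alternatives.

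Other genes were among the widest differences from 1 of the clones. Against D3 these were ZNF711 (-1.31), the endothelial proteoglycan ESM1 (-1.15), ANKRD30A (-1.03), GDF15 (-0.68) and MAGEC2 (0.92). MAGEC2 averaged 7.19 ± 0.21 in D4, 6.28 ± 0.22 in D3, 7.47 ± 0.18 in A3 and 6.14 ± 0.05 in wt (SD, n = 4 each), so D4 and A3 were the high lines. Against A3 they were PASD1 (1.87), DHRS2 (1.85), ZNF681 (1.52), the vitamin B12 binder TCN1 (-1.31), the signalling adaptor HCLS1 (-1.13), the potassium channel KCNJ6 (-1.09), the nuclear receptor NR2F1 (-1.08) and the muscarinic receptor CHRM3 (-0.97). Of these ZNF681 (0.80), KCNJ6 (-0.39) and NR2F1 (-0.45) were called against D3 too. None of the first-named differences in this paragraph lost its call under the 14 alternatives. DHRS2 averaged 7.78 ± 0.13 in D4, 7.52 ± 0.08 in D3, 5.93 ± 0.14 in A3 and 6.35 ± 0.17 in wt (SD, n = 4 each), so D4 and D3 were the high lines.

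**Figure D4:**
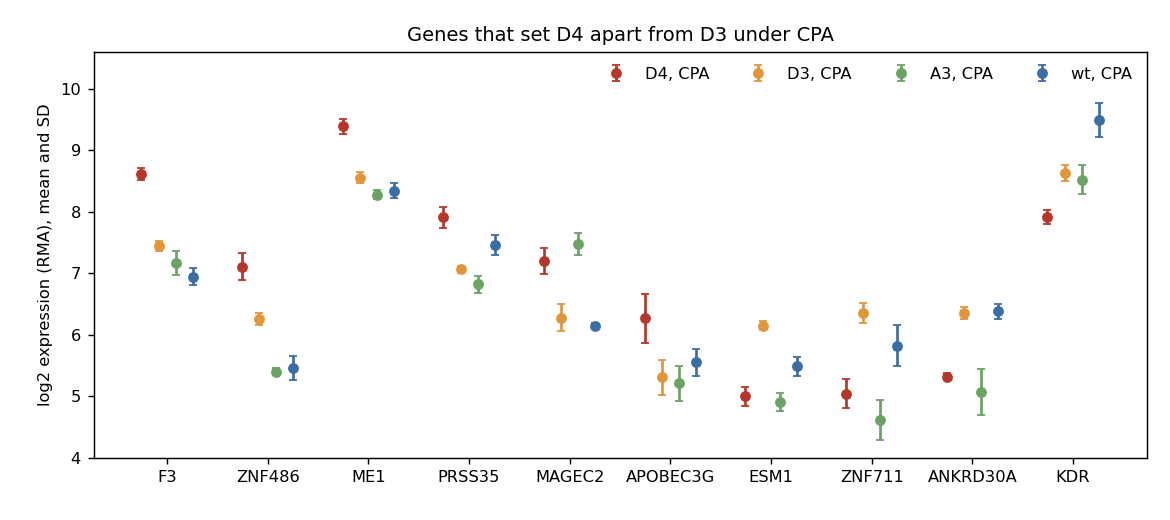
Log2 level of 10 genes that differed between D4 and D3 after CPA, as the mean (point) and SD (bar) of 4 arrays in D4, D3, A3 and wt. F3, ZNF486, ME1 and PRSS35 are highest in D4, MAGEC2 is high in D4 and A3, and KDR is lowest in D4.

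The calls were not spread evenly over the genome. Chromosome 6 had 183 of 799 genes higher (22.9%) and chromosome 16 had 143 of 723 (19.8%), beside 7.54% of all genes. Chromosome 18 had 14.5% higher and chromosome 8 had 13.6%. By contrast, chromosome 11 had 2.89% higher and 11.1% lower and the X chromosome 12.1% lower. On chromosome 6 the higher genes were densest toward the end of the chromosome: 56 of the 200 measured genes from BMP5 to PKIB (28.0%) and 61 of the 199 from FABP7 to PDCD2 (30.7%), beside 36 of 200 from DUSP22 to UQCC2 (18%) and 30 of 200 from LEMD2 to HMGCLL1 (15%). Directly against D3, D4 was higher in 56 and 48 of the genes in the first pair of stretches and in 7 and 5 of those in the second. In D3 minus wt 7.51% of chromosome 6 genes were higher, and in A3 minus wt 7.26%. On chromosome 16 the 180 genes from CTRL to PRDM7 held 74 higher genes (41.1%), beside 10.5% to 14.4% in the other stretches. There D3 minus wt gave 16.6% over the whole chromosome and A3 minus wt 7.47%. On chromosome 8, 23.3% of the genes from RPL23AP53 to GSR were higher and 23.5% of those from UBXN8 to SBSPON. The later stretches of chromosome 8 held 4.7% and 2.68%. Over all of chromosome 8 D3 minus wt gave 6.87% and A3 minus wt 6.37%. On chromosome 22 A3 minus wt gave 107 of 401 genes higher (26.7%), beside 4.49% in D4. Untreated D4 minus wt gave 20.3% on chromosome 6 and 25.2% on chromosome 16.

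Windows of 15 neighbouring measured genes had a median difference of -0.02, with 1% of windows below -0.19 and 1% above 0.25. The highest ran from CDH1 to WWP2 on chromosome 16 (median 0.50, 13 genes higher and 1 lower, CDH1 itself). The next, PDXDC2P-NPIPB14P to CMTR2, lay on the same chromosome (0.45). Both were also above 0 in D3 minus wt (0.26 and 0.23) and in A3 minus wt (0.10 and 0.09). ZNF43 to ZNF726, a zinc finger cluster on chromosome 19, had a median of 0.43 after CPA and 0.08 untreated, and ABRACL to PLAGL1 on chromosome 6 had 0.36. These windows were at 0.09 and 0.09 in D3 minus wt, and at -0.26 and -0.002 in A3 minus wt. The lowest ran from HARS2 to PCDHB11 in the protocadherin cluster of chromosome 5 (-0.66, 9 genes lower), followed by the SNORD116 small nucleolar RNAs of chromosome 15 (-0.49) and ZNF577 to ZNF528 on chromosome 19 (-0.42). All 3 low windows were also low in D3 (-0.39, -0.52 and -0.53) and in A3 (-0.48, -0.49 and -0.58). Genes of such clusters are alike in sequence, and their probe sets may share signal. DNA copy number was not analysed here.

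**Figure D5:**
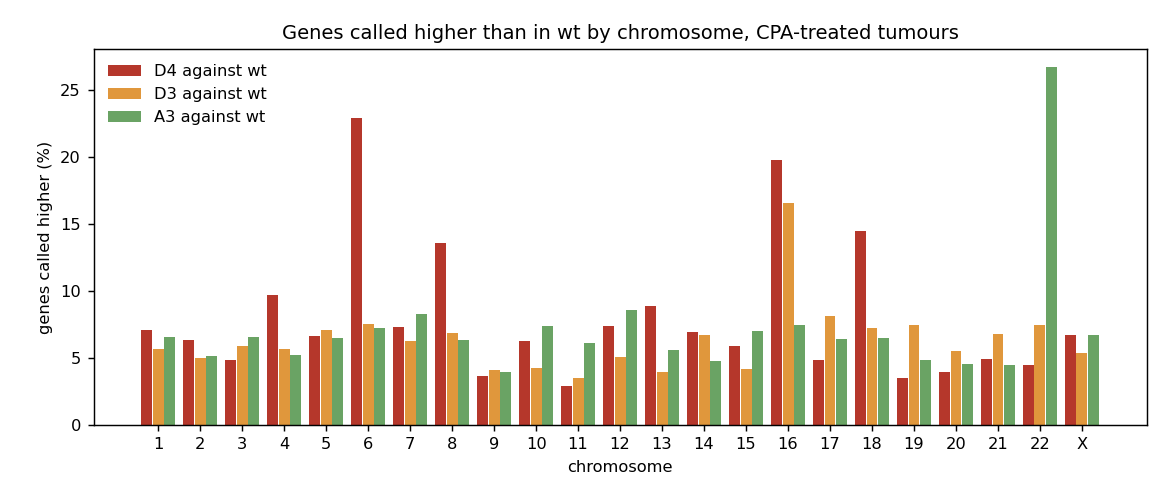
Percentage of the measured genes of each chromosome called higher than in wt after CPA, with bars for D4 (red), D3 (orange) and A3 (green). D4 peaks on chromosomes 6 (22.9%) and 16 (19.8%), and A3 peaks on chromosome 22 (26.7%).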

How the data were processed

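The deposited table held log2 expression levels of 23989 probe sets on 31 arrays, made by the authors with RMA, per the submitters' processing notes. That method subtracts background, gives every array 1 distribution and fits 1 value per probe set, so a change shared by all genes would be removed. Its version is not given in the sources used here, nor is an annotation build. Of the probe sets, 17624 carried 1 gene symbol, 411 several and 5954 none. For the 276 genes with several sets the brightest on average was used. This gave 17314 genes, 17290 of them matched to RefSeq GRCh38.p14 for names and order.

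A single limma model (version 3.58.1, R 4.3.3; lmFit, then eBayes) took a mean for each of 8 groups over all 31 arrays, with 23 residual degrees of freedom, and Benjamini-Hochberg adjustment covered every gene. The number of arrays limits the precision. On simulated data with 200 of 17314 genes changed, this contrast recovered 99% at a log2 change of 1 and 70% at 0.5, and 9 unchanged genes were called. The simulated noise was independent between genes, without shifts of whole arrays, and fewer genes changed than the 2620 called here. These rates therefore need not hold for the real arrays. The 42 gene lists held 767 genes, 670 of them measured. Members and lists were chosen with earlier results of these data known. Named genes were the 15 highest and 15 lowest called genes with separate arrays, up to 5 genes per list with the smallest p, the pathway's defining members, and the 6 highest and 6 lowest differences of D4 from D3 and from A3. Genes quoted beyond these were chosen after their values were seen. Promoters came from RefSeq; motifs were searched on both strands, in the first-listed start of each gene. Alternatives were a model of just the arrays contrasted, a replicate block, a variance trend, array weights, quantile normalization, median centring, no genes from the dimmest 30%, every probe set, and each array left out. Same-numbered D4 and wt arrays deviated together at r = -0.054, 0.213 and 0.255 for replicates 1, 2 and 5, and differently numbered ones at -0.359 to 0.203. The values for replicates 2 and 5 were thus the highest of all. The main model did not treat the numbers as pairs, and the replicate block was run as an alternative.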

Additional observations from a re-analysis of the deposited data

Results flagged for a closer look

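Among 276 groups of 4 arrays (138 followed genes in D4 and in wt after CPA), 15 held 1 array far from the other 3, where chance alone marks about 1 in 20. Each is given as its log2 level beside the nearest other array of its group.

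In D4, replicate 2 was high for PASD1 (7.53, nearest 7.34) and for NLRC5 (6.47, nearest 6.42). Replicate 4 was low for ANXA3 (8.81, nearest 9.14) and PMAIP1 (8.72, nearest 8.93) and high for ALDH18A1 (10.23, nearest 10.15). Replicate 5 was high for CCNB2 (8.82, nearest 8.59) and low for DSP (7.96, nearest 8.09) and MAGEA10 (6.89, nearest 7.16).

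In wt, replicate 1 was high for TYMS (9.45, nearest 9.2) and low for AKR1C3 (7.04, nearest 7.43), TFPI (10.36, nearest 10.68) and MMP16 (8.45, nearest 8.86). Replicate 3 was low for ORC1 (8.08, nearest 8.31) and CYP2B6 (4.9, nearest 5.12), and replicate 2 was low for FZD7 (6.39, nearest 6.83). For none of these genes did the D4 and wt arrays overlap.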

How the results depend on the processing

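After CPA, D4 minus wt called 4028 genes with array weights, 2058 of them higher, against 2620 and 1306 otherwise, and leaving out single arrays gave 1791 to 2681 genes, 878 to 1348 higher and 873 to 1333 lower (873 without wt replicate 3). The replicate block, made with the replicate number as a factor, gave 2415. In untreated tumours a model of just the arrays contrasted found 1805 genes (697 higher, 1108 lower), and leaving out arrays gave 2733 to 3454 (1211 to 1553 higher, 1413 to 1901 lower). D4 minus D3 called 2634 genes in such a model (1514 higher, 1120 lower), 4723 with array weights (2451 higher, 2272 lower) and 218 to 1894 with arrays left out (148 to 1116 higher, 66 to 778 lower). D4 minus A3 called 4632 with array weights (2442 higher, 2190 lower) and 1177 to 2670 with arrays left out (733 to 1517 higher, 439 to 1153 lower). The interaction called 0 genes throughout. The cause of these shifts was not tested.

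Alternatives were run for 6 of the 42 gene lists, and none of those moved its count after CPA by over 1.5 times: interferon effectors gave 39 to 46 falls, mitosis 26 to 32 rises, replication 24 to 34, chaperones 8 to 11 falls, hypoxia 13 to 19 and repair 8 to 13 rises. Of 2054 values of the 138 followed genes, 2031 kept their call, 23 lost it and 0 turned direction. ESM1, lower in D4 than in wt (-0.49), lost its call without wt replicate 2 (adjusted p 0.0566). Median centring gave 1605 higher and 1105 lower genes after CPA. No background level per array was used here, so how far dim genes such as CYP2B6 stood above it was not tested.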
